A study of Danio rerio with 6 samples.

Results

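The zebrafish expression arrays held 72 probe sets whose IDs carry a transcript cluster number from 11200 to 11299, out of 15502 probe sets tested and 15617 rows in all. Members were chosen by the number in the ID alone, whatever their values, but the range was picked with earlier results of these data known, so the values below are a description and the members' shares are no independent support for any pattern. The cluster numbers are those of the array's design, and what order they follow was not tested. Of the 100 numbers in the range, 71 had at least 1 probe set and 1, number 11266, had 2. The nearest probe sets outside the range, Dr.11199.1.A1_at and Dr.11302.1.A1_at, differed between mutant and wild type by -0.0713 and -0.0125 array SDs; the outermost members, Dr.11200.1.S1_at and Dr.11296.1.S1_at, differed by -0.51 and 0.0875.

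The mutant group was 3 pools of whole larvae with the mutant phenotype and the wild type group 3 pools of larvae with a normal phenotype, all at 5 days post fertilisation (dpf). Both came from crosses of parents heterozygous for cdipt hi559Tg, and each pool held 25 animals sorted by appearance. The wild type pools can therefore hold heterozygous carriers as well as homozygous wild type siblings. No label ties a pool to its own clutch, and the p-values therefore cover only the variation among these 6 pools, part of which may be technical.

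The gene cdipt encodes phosphatidylinositol synthase, an enzyme of the endoplasmic reticulum that joins inositol to CDP-diacylglycerol. Its product is the parent lipid of all phosphoinositides, which serve in membrane traffic, in calcium release and as landmarks of membrane identity. In photoreceptors, the light-sensing cells of the retina, light drives opsins to activate the G protein transducin, which switches on a cyclic GMP phosphodiesterase, and RGS9 ends the response by speeding GTP hydrolysis on transducin.

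Levels are in array SDs. In the deposited table the median of every array is 0 and its SD is 1, so a level says how far a signal lay from the middle of its own array. A difference is mutant minus wild type on that scale and cannot be turned into a fold change. A probe set is called, and said to have risen or fallen, where limma's test over all 15502 probe sets gives a Benjamini-Hochberg adjusted p under 0.05.

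The arrays separated by phenotype on the first principal component (55.0% of the variance), and both arrays numbered 3 stood apart from the other 4 on the second (25.1%). The single cdipt probe set, Dr.13550.1.A1_at, was at -1.2, -1.15 and -0.978 in mutant pools 1 to 3, against 0.408, 0.388 and 0.244 in wild type pools 1 to 3. It was lower in every mutant pool than in any wild type pool, with a difference of -1.46 (SE 0.0722, limma adjusted p = 4.89e-05). Of the marker lists for whole-larva tissues, the 4 exocrine pancreas probe sets (ela2, ctrb.1, prss1 and cpa5) and the 3 muscle probe sets (mylpfa and ckma) had 0 calls and 0 with an unadjusted p under 0.05 in limma, with median differences of -0.0482 and -0.0822. The mutant pools lay all below the wild type pools for all 3 muscle probe sets, which cover 2 genes, and for 0 of the exocrine pancreas ones. Over all probe sets this held for 13.3%. Among 5 liver probe sets, cp rose (0.772, limma adjusted p = 0.0316) and fabp10a, tfa, apoa1a and apobb.1 did not pass; of 3 intestinal probe sets fabp2 fell (-0.984, limma adjusted p = 0.000811), while fabp6 (-0.157) and apoa4b.1 (-0.299) did not pass. The lens crystallin cryaa fell (-0.265, limma adjusted p = 0.0491). Of 7 endoplasmic reticulum stress probe sets 4 rose: pdia4 by 0.724, hspa5 by 0.708, hsp90b1 by 0.527 and dnajc3a by 0.344. Those of edem1 (0.228), xbp1 (0.138) and atf4a (-0.051) did not pass. Over all probe sets 1.23% rose.

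Transcripts of 12 of the 72 members fell in mutant larvae and none rose. The decreases took in rgs9a, the regulator that ends the light response; syt5a, a synaptotagmin; inaa, a neuronal intermediate filament protein; slc25a3a, the phosphate carrier of the inner mitochondrial membrane; and ckmt2a, a mitochondrial creatine kinase. Of the 12, 7 fell by at least 1 array SD, and 6 of the 12 had no gene name in the tables used here. The other 60 members did not pass, and 59 of these lay within 0.2 array SDs of no difference. Of all 72 members 81.9% lay within that distance, against 90.9% of all probe sets.

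The 12 calls were 16.7% of the members. Over all probe sets 3.04% were called, 1.81% lower and 1.23% higher. The 7 large decreases were 9.72% of the members, against 0.368% of all probe sets lower by at least 1 array SD. No member was higher by that much, as were 0.0903% of all probe sets. With 0 members called higher by limma, 3 were higher and 15 lower at an unadjusted p under 0.05, and over all 15502 probe sets 1268 were higher and 1347 lower at that level. Array weights in limma called 3 members higher and 20 lower, in a fit that called 25.3% of all probe sets. The mutant pools lay all below the wild type pools for 18 members, or 25%, against 13.3% of all probe sets, and all above them for 5, or 6.94%, against 11.3%. The median difference was -0.0213 over the members and -0.00703 over all probe sets.

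**Figure D1:**
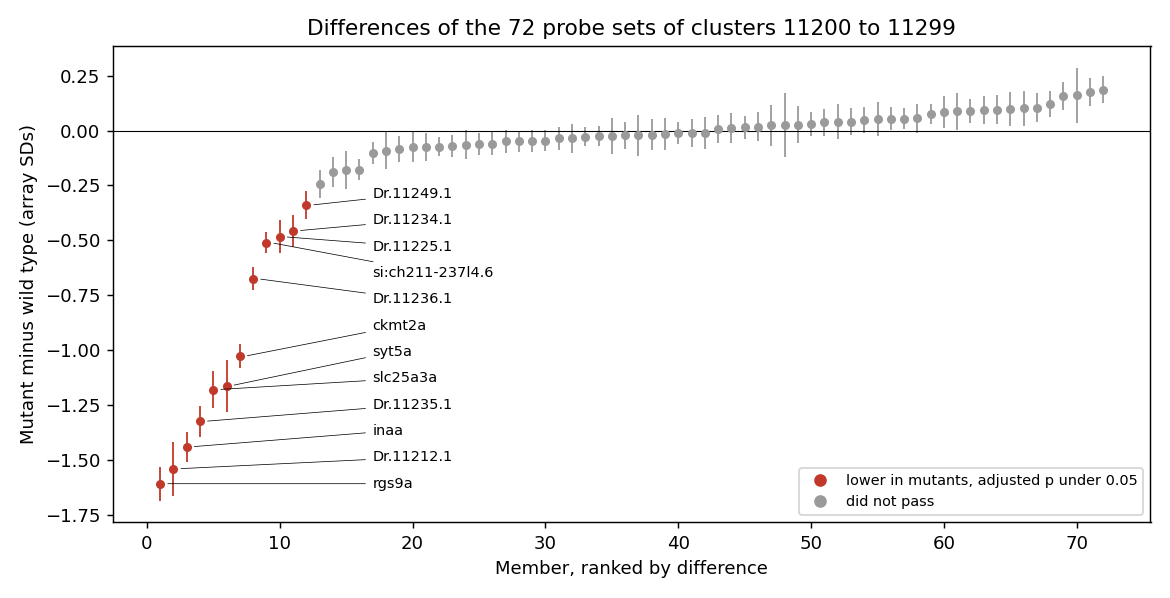
Mutant minus wild type difference in array SDs (y axis, point, with its SE as bar) of the 72 members ranked from lowest to highest (x axis). The 12 members that passed the test, in red, all lie below 0, and the 60 others lie between -0.245 and 0.187.

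The signalling group took in G protein, calcium and cyclic nucleotide signalling and also other signalling proteins. In it 1 of 8 members fell and none rose. This was rgs9a (Dr.11276.1.A1_at), with levels of -1.39, -1.31 and -1.14 in mutant pools 1 to 3, against 0.409, 0.353 and 0.221 in wild type pools 1 to 3. The groups were far apart: every mutant pool lay well below every wild type pool, and the difference was -1.61 (SE 0.0769, limma adjusted p = 4.62e-05). Its signal stood at the 10.8th percentile of the mutant arrays and the 64.3rd percentile of the wild type arrays on average. With values floored at the 25th percentile of each array its difference was -1.02, since the mutant values lay under that floor.

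The paralogue rgs9b, on Dr.16778.1.A1_at outside the number range, averaged -1.26 ± 0.0617 in mutant pools and -1.30 ± 0.0678 in wild type pools (SD, n = 3 each), with a difference of 0.0357 (limma adjusted p = 0.779). That of the membrane anchor rgs9bp was -0.22 (limma adjusted p = 0.139), with all its mutant pools below all wild type pools. Both signals were dim. On average rgs9b stood at the 11.1th percentile in mutants and the 9.93rd in wild type, and rgs9bp at the 0.135th and the 2.65th. Whether a decrease could show at such levels is unknown. The transducin alpha subunits on which RGS9 acts were lower in mutants: the differences were -1.78 and -2.02 for the gnat1 probe sets and -2.27 and -2.39 for the gnat2 probe sets.

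The other 7 signalling members did not pass. They included gnao1a, the alpha subunit of the neuronal G protein Go, with 1.21, 1.09 and 0.952 in mutant pools 1 to 3, against 1.16, 1.23 and 0.924 in wild type pools 1 to 3 (difference -0.0211). Its groups overlapped almost fully, with both pools numbered 3 the lowest of their group. The cyclic AMP phosphodiesterase pde8a differed by -0.102, with the 3 mutant pools just below the wild type pools. The calcium-binding cib2, the scaffold cnksr2b, the TAK1 partner tab3 and the 14-3-3 protein ywhag1 differed by -0.0352, -0.0756, -0.0726 and -0.035. A positive difference was seen for phlda3, which in mammals is a p53 target and restrains AKT: 0.158 (SE 0.0659, limma adjusted p = 0.28), at -0.202, -0.259 and -0.0596 in mutant pools, against -0.331, -0.405 and -0.256 in wild type pools. Mutant pool 2 fell just under wild type pool 3, so the groups overlapped.

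Cluster 11266 was the only one with a pair of members, and neither passed. The ywhag1 probe set Dr.11266.1.S1_at was at 1.23 ± 0.127 in mutant pools and 1.27 ± 0.0246 in wild type pools (SD, n = 3 each), and Dr.11266.2.A1_at, which has no gene name here, at 1.05 ± 0.0597 in mutants and 1.11 ± 0.0429 in wild type. Their differences were -0.035 and -0.0603 (limma adjusted p = 0.826 and 0.581).

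Of 3 members in vesicle trafficking, 1 fell. This was syt5a (Dr.11215.1.A1_at), one of the synaptotagmins, calcium sensors of regulated exocytosis. It was at -0.133, -0.279 and 0.118 in mutant pools 1 to 3, against 0.986, 0.937 and 1.27 in wild type pools 1 to 3. Pool 3 was the highest in both groups, yet the highest mutant pool stayed far below the lowest wild type pool (difference -1.16, SE 0.117, limma adjusted p = 0.00126). With ordinary variances in place of moderated ones the call was lost (adjusted p = 0.112).

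The plasma membrane SNARE protein stx3b differed by -0.047 (limma adjusted p = 0.653). The Golgi stacking protein gorasp2 had one of the 5 largest positive differences among members, 0.123 (SE 0.0594, limma adjusted p = 0.342): 1.29, 1.33 and 1.41 in mutant pools, against 1.25, 1.29 and 1.12 in wild type pools. Its groups just failed to overlap, and it did not pass.

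Of 3 cytoskeletal members, 1 fell. This was inaa (Dr.11240.1.A1_at), of the internexin family of neuronal intermediate filaments, at -0.698, -0.843 and -0.643 in mutant pools 1 to 3, against 0.794, 0.732 and 0.615 in wild type pools 1 to 3. It lay below the array median in every mutant pool and above it in every wild type pool (difference -1.44, SE 0.0694, limma adjusted p = 4.62e-05). Its paralogue inab, outside the number range, averaged 0.254 ± 0.113 in mutant pools and 0.228 ± 0.074 in wild type pools (SD, n = 3 each), and its difference of 0.0254 did not pass (limma adjusted p = 0.88). The gamma-tubulin tubg1, which nucleates microtubules, and the actin-severing family member flii differed by 0.0237 and 0.0887 and did not pass. For tubg1, wild type pool 3 at 0.346 stood below the other 5 pools, which ran from 0.535 to 0.718.

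Among the 7 members in mitochondria and energy metabolism 2 fell. The carrier slc25a3a (Dr.11283.1.A1_at), which brings phosphate into the mitochondrial matrix for ATP synthesis, was at 0.17, 0.249 and 0.493 in mutant pools 1 to 3, against 1.41, 1.47 and 1.57 in wild type pools 1 to 3. Mutant pool 3 was again the highest of the mutants and still lay well under all wild type pools (difference -1.18, SE 0.0859, limma adjusted p = 0.000291). This call was lost with ordinary variances (adjusted p = 0.0884).

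The creatine kinase ckmt2a (Dr.11252.1.A1_at), which in mitochondria passes phosphate from ATP to creatine, was at 0.773, 0.718 and 0.691 in mutant pools 1 to 3, against 1.70, 1.72 and 1.85 in wild type pools 1 to 3. These were the tightest mutant pools of the 12 called members (SD 0.0419), and the difference was -1.03 (SE 0.0549, limma adjusted p = 5.67e-05). Here mutant pool 3 was the lowest of the mutants, unlike in slc25a3a. On average the signal was at the 78.7th percentile in mutants and the 95.1st in wild type.

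The paralogue slc25a3b, outside the number range, was at 2.94 ± 0.0111 in mutant pools and 2.99 ± 0.0299 in wild type pools (SD, n = 3 each; difference -0.055, limma adjusted p = 0.555). The related mitochondrial creatine kinase ckmt1 fell, by less than ckmt2a in array SDs: 1.02 ± 0.0532 in mutant pools and 1.38 ± 0.119 in wild type pools (SD, n = 3 each; difference -0.361, SE 0.0672, limma adjusted p = 0.029). Whether members of such a pair differ in their response was not tested.

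The glycolytic enzymes and the respiratory chain member did not pass. The triosephosphate isomerase tpi1a was at 0.511, 0.514 and 0.607 in mutant pools, against 0.879, 0.814 and 0.674 in wild type pools; the groups did not overlap, and its difference of -0.245 (SE 0.0632, limma adjusted p = 0.0943) was the lowest among members that were not called. Its paralogue tpi1b differed by -0.0496 (limma adjusted p = 0.617). The glucose-6-phosphate isomerase gpia averaged 2.14 ± 0.0423 in mutant pools and 2.21 ± 0.0614 in wild type pools, and sdha, the flavoprotein of succinate dehydrogenase, at 1.74 ± 0.0601 in mutant pools and 1.79 ± 0.0249 in wild type pools (SD, n = 3 each; differences -0.0707 and -0.0476). The mitochondrial ribosomal protein mrps33 and dnajc19, of the inner membrane import machinery, differed by 0.0991 and -0.0491.

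**Figure D2:**
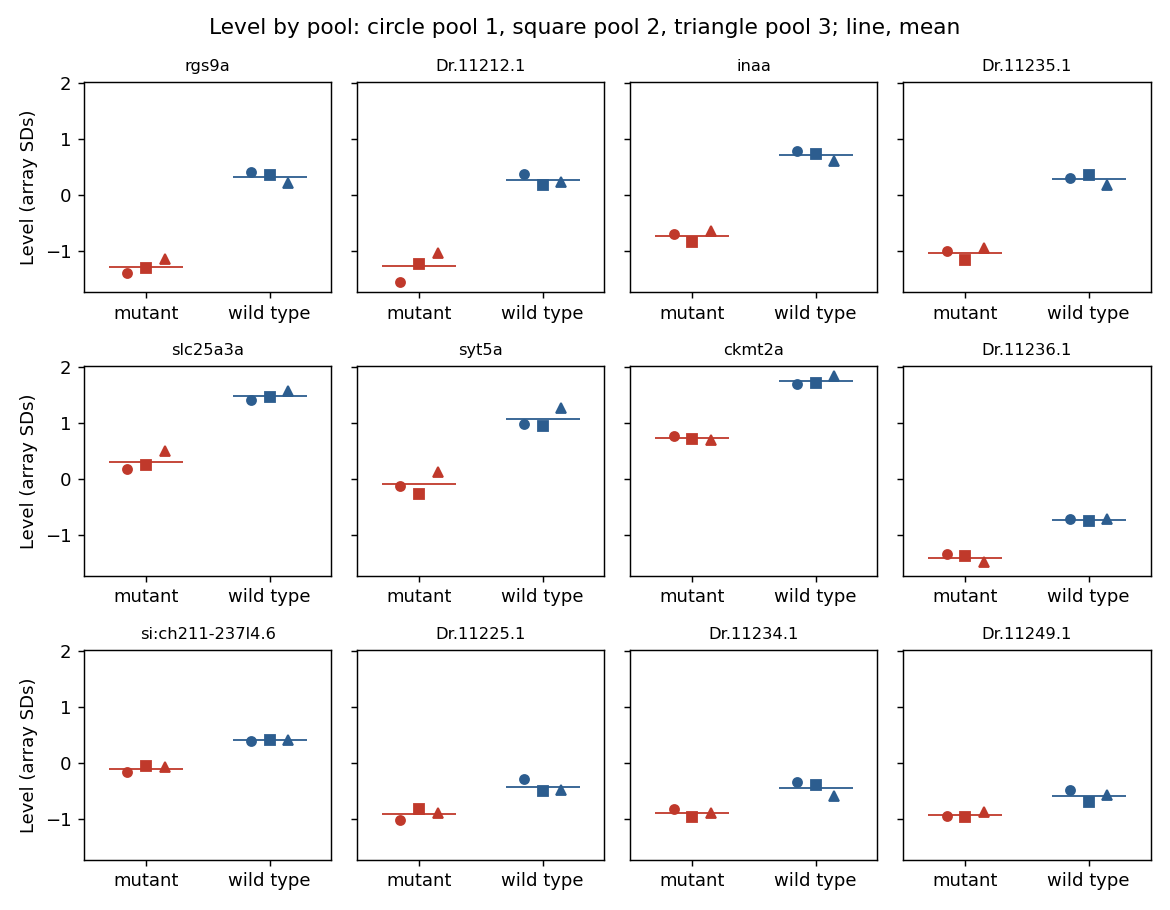
Levels in array SDs (y axis) of the 12 called members in the 3 mutant pools (left, red) and the 3 wild type pools (right, blue), with the group mean as a line. In every panel the 3 mutant pools lie below the 3 wild type pools; in rgs9a, inaa, slc25a3a and syt5a the triangle, pool 3, is the highest of the mutants.

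The remaining call with a gene name was Dr.11200.1.S1_at, si:ch211-237l4.6, a name without a stated role. It was at -0.175, -0.0676 and -0.0776 in mutant pools, against 0.396, 0.401 and 0.413 in wild type pools. The wild type pools were close together (SD 0.00904), and the difference was -0.51 (SE 0.048, limma adjusted p = 0.000967). It too was lost with ordinary variances (adjusted p = 0.0564).

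Members with 1 gene name and roles outside these groups had 0 calls in limma, and 0 of them had an unadjusted p under 0.05. The ligands, receptors and adhesion molecules were uts1 (urotensin 1, a peptide of the corticotropin-releasing hormone family), the ephrin efnb1, the ephrin receptor epha6 and the cadherin cdh18a, with differences from -0.059 to 0.0302. Second probe sets outside the number range gave -0.143 and -0.0744 for uts1 and -0.114 for efnb1. In lipid metabolism and transport, mid1ip1b, which in mammals stimulates acetyl-CoA carboxylase and so fatty acid synthesis, differed by 0.103 and its second probe set by 0.0998; the phospholipase pla1a differed by 0.00783 and the amino acid transporter slc43a1a by 0.0875. The splicing factor rbfox1, the homeobox gene homezb and midn, a nuclear protein, differed by 0.0266, 0.0942 and 0.0406, and the melanosome protein pmelb by 0.0554.

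The pla1a signal was among the dimmest of the array, at the 4.70th percentile in mutants and the 4.38th percentile in wild type. The mid1ip1b probe set was at -0.495, -0.45 and -0.249 in mutant pools, against -0.418, -0.464 and -0.62 in wild type pools, with the groups overlapping. For slc43a1a, mutant pool 3 at 0.406 stood above the other 5 pools, which ran from 0.071 to 0.167. The members gatd3, zgc:101716 and zdbf2, for which no role is given here, differed by 0.0545, -0.18 and -0.0908 and did not pass. One probe set, Dr.11241.1.S1_at, is annotated to several genes at once, most of them calmodulin genes, and differed by -0.0478.

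Of 35 members without a gene name 6 fell and none rose, the same number as among the 36 members with 1 gene name. The largest decrease was that of Dr.11212.1.A1_at, at -1.57, -1.23 and -1.04 in mutant pools 1 to 3, against 0.379, 0.184 and 0.229 in wild type pools 1 to 3. Its mutant pools had the widest spread of any member (SD 0.268), and the difference was -1.54 (SE 0.123, limma adjusted p = 0.000454). With ordinary variances this call was lost (adjusted p = 0.0986), and with the floor at the 25th percentile the difference was -0.955.

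Dr.11235.1.A1_at was at -1.01, -1.17 and -0.948 in mutant pools, against 0.302, 0.366 and 0.184 in wild type pools, a difference of -1.33 (SE 0.0723, limma adjusted p = 5.67e-05). Dr.11236.1.A1_at was at -1.35, -1.39 and -1.49 in mutant pools, against -0.718, -0.762 and -0.726 in wild type pools (difference -0.675, SE 0.0516, limma adjusted p = 0.000369). These 2 probe sets and Dr.11234.1.A1_at, a called member given below, have consecutive numbers. That says nothing on whether they belong to neighbouring genes. Dr.11236.1.A1_at was dim in both groups, at the 8.19th percentile in mutants and the 22.8th in wild type. For it a floor at the 25th percentile left only the -0.0289 by which the floors themselves differed.

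The smaller unnamed decreases were of dim probe sets as well. Dr.11225.1.A1_at was at -1.03, -0.821 and -0.896 in mutant pools, against -0.295, -0.504 and -0.493 in wild type pools (difference -0.484, SE 0.0756, limma adjusted p = 0.012). Dr.11234.1.A1_at and Dr.11249.1.A1_at, the called members left over by the limit of 10 named calls and named here after their values were seen, differed by -0.457 and -0.34 (limma adjusted p = 0.014 and 0.0295). Calls of these 3 were lost when single pools were left out: Dr.11225.1.A1_at was lost without mutant 1 (limma adjusted p = 0.0507), Dr.11234.1.A1_at without mutant 2, mutant 3, wild type 1 or wild type 2 (0.0684, 0.0508, 0.0728 and 0.053), and Dr.11249.1.A1_at without any one pool other than wild type 2 (0.0592 to 0.122). The floor at the 25th percentile (0.1, 0.149 and 0.415) and ordinary variances (0.177, 0.177 and 0.193) also ended these 3 calls.

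The largest positive differences among members were also of unnamed probe sets, and none passed. Dr.11229.1.A1_at was at 0.854, 0.879 and 0.737 in mutant pools, against 0.627, 0.714 and 0.568 in wild type pools (difference 0.187, SE 0.0596, limma adjusted p = 0.17). Dr.11243.1.A1_at was at -0.67, -0.785 and -0.698 in mutant pools, against -0.834, -0.841 and -1.01 in wild type pools (0.176, limma adjusted p = 0.215). In both the mutant pools lay just above the wild type pools. Dr.11231.1.A1_at had a difference of 0.161 with a wide spread in both groups (SD 0.211 in mutants and 0.204 in wild type) and overlapping pools. With the floor, the difference of Dr.11243.1.A1_at was -0.0205, near the -0.0289 by which the floors themselves differed. That value is therefore no sign of a reversal.

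**Figure D3:**
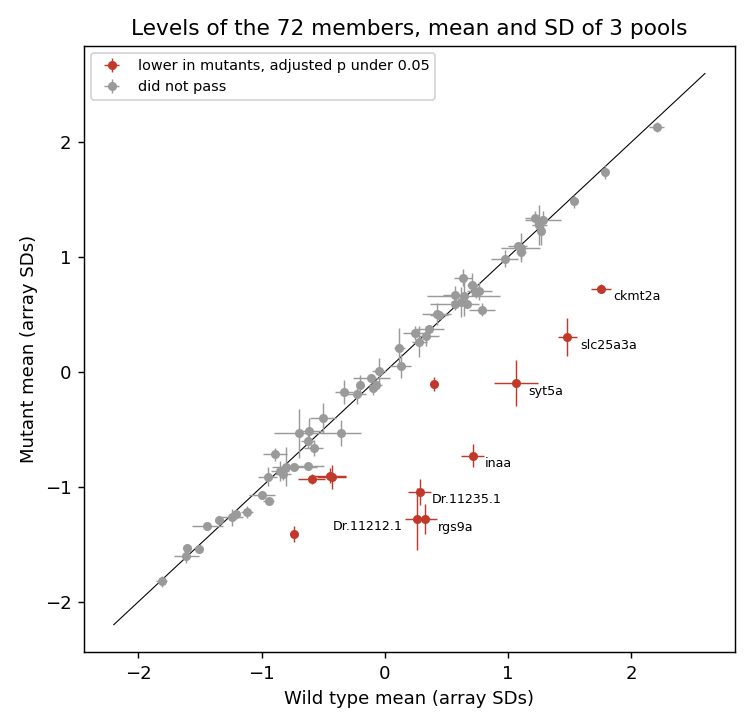
Mean level in mutants (y axis) against mean level in wild type (x axis), both in array SDs with the SD of 3 pools as bars, for the 72 members; the line marks equal levels. Most members lie on the line from the dimmest to the brightest, and the called members, in red, lie below it.

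The mean signal of called members stood between the 8.19th and the 78.7th percentile in mutants and between the 22.8th and the 95.1st in wild type. Over all members the mutant means ran from -1.82 to 2.14 and the wild type means from -1.81 to 2.21. The dimmest in wild type were Dr.11217.1.A1_at (-1.82 in mutants and -1.81 in wild type), pla1a (-1.60 in mutants and -1.61 in wild type) and Dr.11279.1.A1_at (-1.53 in mutants and -1.60 in wild type). No detection calls were used, so whether such probe sets were above background is unknown. Signals of different probe sets are not measures of transcript abundance.

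The median SD of a member was 0.0706 in mutants and 0.078 in wild type, and the medians over all probe sets were 0.0547 for mutant and 0.0719 for wild type pools. Pool 3 was the lowest of the mutant pools in 33 members (45.8%, against 37.9% of all probe sets). It was the lowest of the wild type pools in 35 (48.6%, against 40.0% of all probe sets). In 20 members both held at once. The share of all probe sets where both held was not worked out, so that count cannot be called a trait of the members. The widest wild type spread was that of Dr.11222.1.A1_at (SD 0.295), where the pools numbered 3 were at 0.459 in mutants and 0.30 in wild type, below the others at 0.758 to 0.813. Without both arrays numbered 3, an alternative chosen after seeing the data, 13 members were called lower, among them all 12, and 0 higher, in a fit that called 4.86% of all probe sets.

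The ID ending is a further property that the choice of members did not use. An ending of A1_at was carried by 57 members, or 79.2%, against 54.3% of all probe sets, and S1_at by 15, or 20.8%, against 39.0%. Of the 12 called members 11 ended in A1_at, and 46 of the 60 others did.

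Transcripts of photoreceptor genes were also lower in these mutant pools. A list of 69 photoreceptor genes was put together after the values of the members and of part of the list had been seen. It had 38 genes and 49 probe sets on the array, none of them a member. The list holds rgs9b and rgs9bp but not the member rgs9a, so the lack of members in it is a matter of that choice. Of the 49 probe sets 36 fell and 0 rose in limma, and none had a positive difference with an unadjusted p under 0.05. The median difference was -0.956, and it ran from -2.45 to 0.0357. Among the decreases were the ultraviolet opsin opn1sw1 (0.963 in mutants and 3.37 in wild type, difference -2.41), the blue opsin opn1sw2 (-2.09) and the green opsin opn1mw1 (-2.07). Of the other opsins of the list, opn1mw2 fell by -0.415, and opn1mw4 (-0.181) and the red opsin opn1lw1 (-0.184) did not pass. For opn1mw4 and opn1lw1 the mutant pools all lay below the wild type pools. Both were dim even in wild type, at the 24.1st and 27.3rd percentile, against the 99.5th for opn1sw1. Also lower were the cone phosphodiesterase subunits pde6c (-2.11) and pde6ha (-2.17 and -2.45), the recoverin rcvrn3 (-1.84) and the outer segment protein rom1b (-1.77). The recoverin rcvrn2 differed by -1.76 and, not passing, -0.165. Among the transcription factors of the list, crx (-0.455), otx5 (-0.275) and 1 six7 probe set (-0.8) fell. The other six7 probe set (-0.276) and nr2e3 (-0.226) did not pass. Some of the list had cluster numbers near one another, such as gngt1 (9835), pde6c (9841), gnat2 (9881) and gnat1 (9899). Others lay far from these, such as rbp3 (5738) and guca1b (4119). Just below the members' range, gucy2f (11183, difference -0.712) and cnga1a (11194, -0.348) fell. The other gucy2f probe set, number 12591, did not pass (-0.14).

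Summed over the 49 probe sets, the list stood at -26.4, -24.3 and -11.8 array SDs in mutant pools 1 to 3, against 35.8, 35.0 and 30.2 in wild type pools 1 to 3. Mutant pool 3 was thus the highest of the mutants. It was also the highest mutant pool in 26 of the 36 lower photoreceptor probe sets, in 7 of the 12 called members, and in 6 of the 7 members lower by at least 1 array SD, all but ckmt2a. Over all probe sets it was the highest in 37.5%. A list of genes of other retinal cells, made at the same time, had 12 probe sets (vsx1, rpe65a, rlbp1a, pou4f2, atoh7, isl1a, pax6a, pax6b, prox1a and glula). Of these 0 passed in limma, 1 in each direction had an unadjusted p under 0.05, and the median difference was 0.00228. The higher of that pair was vsx1 (0.191) and the lower an rpe65a probe set (-0.407). The other rpe65a probe set differed by -0.317. The summed level of the 12 probe sets was 6.32, 5.97 and 6.28 in mutant pools, against 6.57, 6.79 and 6.77 in wild type pools. RNA of whole larvae does not tell in which tissue a signal arose. These values therefore cannot show whether other retinal cells were changed. The part of photoreceptors in the members' decreases was not tested. In RNA of whole larvae, fewer cells of a type and less RNA per cell cannot be told apart.

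**Figure D4:**
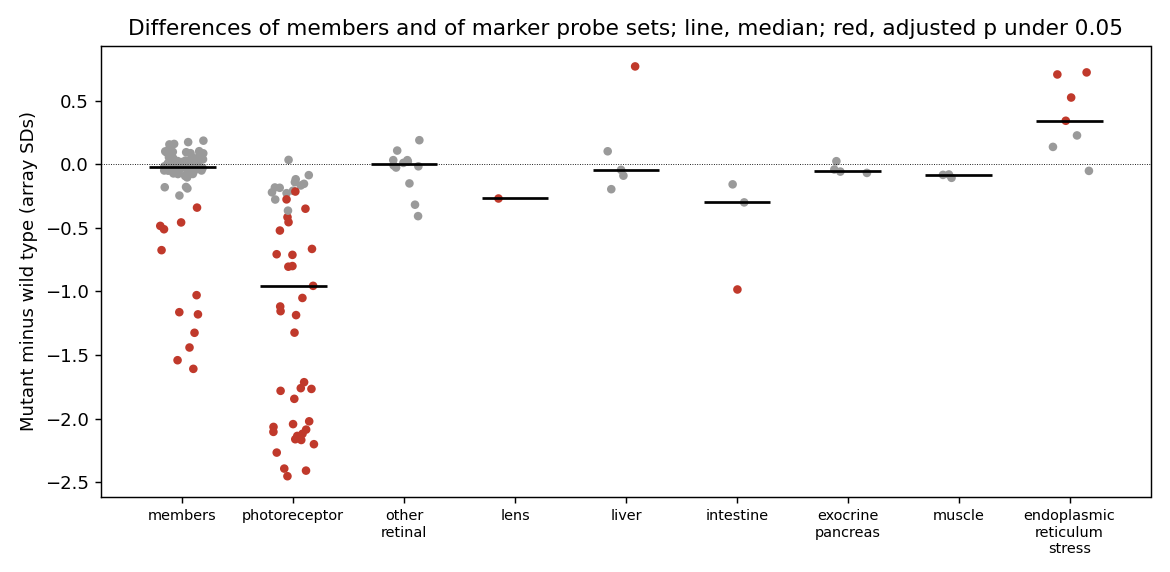
Mutant minus wild type difference in array SDs (y axis) of the 72 members and of the probe sets of each marker list (x axis), with the median as a line and called probe sets in red. The called members lie between -1.61 and -0.34, and the medians of the members and of the other retinal list lie near 0.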

How the data were processed

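RNA of 6 pools of whole larvae, 3 mutant and 3 wild type by sample title, was hybridised to one-colour Affymetrix arrays, per the labels' protocols. The authors' deposited values are a score per probe set and array: RMA, per the submitters' processing notes (no version), then centred and scaled so that in the deposited table every array has a median of 0 and an SD of 1; no source used here describes that step. Log2 units cannot be recovered, nor can signal over background.

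The 115 control rows were left out, and 15502 probe sets were compared with limma 3.58.1 in R 4.3.3 (lmFit, eBayes, group as the only term, two-sided, Benjamini-Hochberg over all of them). The script was tested on simulated data. Deviations from the group means of same-numbered arrays correlated at 0.2, 0.166 and 0.367 for numbers 1 to 3, all above the level of 0.1 set for pairing. The deviations of a group's 3 arrays cancel out, so a shift shared by the arrays numbered 3 also raises the correlations among numbers 1 and 2. The values for numbers 1 and 2 are therefore no separate signs of pairing. Mutant 1 with wild type 2 (0.227) and mutant 2 with wild type 1 (0.168) correlated as strongly, so numbers 1 and 2 were not told apart, and no label says what a number shares. The reported values are from the fit without pairs; replicate number as a block was an alternative.

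Gene names came from the platform annotation, updated by gene ID to RefSeq; 36 members had 1 symbol, 1 had several and 35 none. Named members were those called (at most 10 per direction), the 5 largest differences each way, the 3 highest and lowest in wild type, the 3 widest SDs per group, shared clusters and the ends of the range; other members are given by role. The members, roles and lists were chosen with earlier results of these data known; the photoreceptor, other retinal and paralogue lists and the role groups were made after the members' values were seen. Alternatives were filters and a floor on dim values, array scalings, variance priors, array weights, the replicate block, control rows kept, and leaving out arrays. No sequences were used here.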

Additional observations from a re-analysis of the deposited data

How the results depend on the processing

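None of the 12 decreases changed sign in any of the 17 alternatives that tested it. In all 12 every mutant pool lay below every wild type pool, so most alternatives could hardly change a sign. The kept signs are therefore no support. The filters on dim probe sets left 8 of the 12 tested without the dimmest 25% and 4 without the dimmer 50%, and the 8 kept their calls. Without the dimmest 25%, 3.74% of all probe sets tested there were called. The counts of 12 members called lower and 7 lower by at least 1 array SD stayed within 1.5 times except as follows. Without the dimmer 50% of probe sets 4 were called, all 4 of those still tested, and 3 reached 1 array SD. Only 33 members were tested there, and 4.59% of all probe sets tested there were called. Ordinary variances called 5, with 0.213% of all probe sets called. Array weights called 20 lower and 3 higher, with 25.3% of all probe sets called; the cause was not tested. A floor at the 25th percentile kept 8 of the 12, losing dim members, with 2.49% of all probe sets called. Leaving out 1 array gave 10 to 12 called lower, 0 called higher and 6 to 7 lower by at least 1 array SD. Those fits called 1.46% to 3.09% of all probe sets. With the replicate block there were 12 and 7, with no member's call changed, while 4.69% of all probe sets were called. Quantile normalization, interquartile scaling, the trend and robust prior, and keeping control rows each kept all 12, with 2.89% to 3.14% of all probe sets called. Precision is limited by the 3 arrays per group, and signal over background is unknown. The calls of rgs9a, inaa, ckmt2a and Dr.11235.1.A1_at were kept in every alternative that tested them, with adjusted p up to 0.0396, 0.0396, 0.0396 and 0.049.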
